A study of Rattus norvegicus with 244 samples.

Results

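Gene expression in the somatomotor cortex of rats was compared between 3 months after a spinal cord injury and the earlier window of 7, 14 and 28 d after it. The comparison holds 15 samples of the 84 in the series: 4 samples of injured cortex at 3 months, and 11 at 7 to 28 d (3 at 7 d, 4 at 14 d and 4 at 28 d). Samples were chosen from their titles alone, and replicate 2 at 7 d was left out because earlier results of these data had set it apart. All 15 carry a moderate spinal cord injury, at a distance from the tissue that was measured. For reference 4 naive cortex samples, 1 sham sample at 3 months (surgery without injury) and 5 sham samples at 7 to 28 d were used. Sham 14 d replicate 2 and sham 3 months replicate 1 were left out because earlier results of these data had put them in doubt. Strain, age and sex are not in the labels used here. A rat sampled at 3 months had also lived longer than one sampled at 7 d, so time since the operation and age cannot be told apart. The labels do not say that samples came from separate animals, so p-values measure the spread between these samples, which may be technical.

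Layer 5 of the somatomotor cortex holds the large pyramidal neurons whose axons form the corticospinal tract, and a spinal injury can cut those axons far from their cell bodies. The cell bodies remain in the cortex together with interneurons, astrocytes, oligodendrocytes, microglia and vessels. In a tissue sample of this kind, fewer cells of a type and less RNA per cell cannot be told apart. Sfpq, the marker gene of the comparison, was chosen with earlier results of these data known. It encodes an RNA-binding protein of nuclear paraspeckles that takes part in splicing and, in neurons, in carrying mRNA along axons.

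Every sample was hybridised to 3 kinds of array (types A, B and C), each with its own probe sets. Values are intensities, and differences are given on the scale of log2(intensity + 32) with their standard error. All deposited arrays had nearly the same trimmed mean, but their lower ends differed. On type A the 5th percentile of intensity ran from 11.98 to 17.34 at 3 months and from 6.40 to 11.3 at 7 to 28 d, with no overlap. The type A array medians ran from 265 to 283 and from 201 to 262. On type B the 5th percentile ran from 17.6 to 20.2 and from 12.7 to 17.3, also with no overlap. On type C it overlapped (17.4 to 21.25 against 12.5 to 18.5), but the medians did not (379.81 to 392.45 against 337.11 to 379.4). The 5th percentile of naive type A arrays ran from 10.3 to 14.2. The actin 3' over 5' ratio, a sign of RNA integrity, overlapped: 1.59 to 1.81 against 1.30 to 2.22 on type A. Of 10 cortical neuron markers, 7 passed the filter on low values, among them neurogranin (Nrgn) and Camk2a. Their mean levels at 7 to 28 d lay between 11.3 and 14.5, far above the mean of the negative control probe sets of their array type (6.79 to 7.32). None of the 7 was called different at 3 months by limma. Crym and Ddn came close, with differences of -0.37 each (adjusted p = 0.051 and 0.059, limma). The rest lay between -0.15 (Cck) and 0.13 (Camk2a).

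Of 18489 probe sets tested, 1378 (7.45%) differed between 3 months and 7 to 28 d at an adjusted p of 0.05 in limma's moderated test. Higher values at 3 months were found for 840 (4.54%) and lower values for 538 (2.91%). The 4 samples at 3 months lay all above or all below the 11 earlier samples in 630 probe sets (3.41%), and 495 of these were among the 1378. The changes were mostly modest. The median rise was 0.74 and the median fall -0.54, with 200 rises and 50 falls of at least 1 on the log2 scale. Counted over genes, with the probe set of highest mean signal standing for each of 9071 genes, 271 rose (2.99%) and 312 fell (3.44%).

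The direction of the calls varied with signal strength and with scaling. With the probe sets in 5 equal classes of mean signal, 214 of the weakest class were higher and 30 lower, and in the strongest class 95 were higher and 213 lower. The median difference fell from 0.20 in the weakest class to -0.06 in the strongest, against 0.05 over all probe sets. After quantile normalization 1201 probe sets were called, 514 higher and 687 lower, so the share of higher calls went from 61.0% to 42.8%. Of the 1378 calls, 922 were also made after quantile normalization, and none had the opposite sign. With the 5th percentile of each array as a covariate, 47 probe sets were called, all of them among the 1378. Under that covariate the median standard error grew from 0.18 to 0.23, the median of the 840 rises went from 0.74 to 0.55 and that of the 538 falls from -0.54 to -0.45, and 29 of the 1378 changed sign. The count also fell without replicate 1 (684), replicate 3 (617) or replicate 4 (626) at 3 months.

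**Figure D1:**
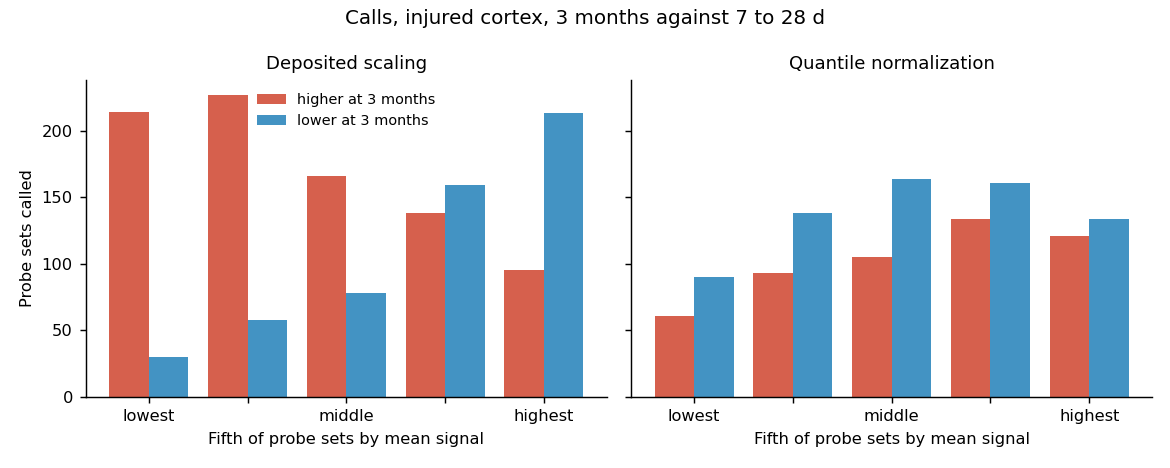
Probe sets called higher or lower at 3 months than at 7 to 28 d (bars, number of probe sets) in each of 5 equal classes of mean signal, under the deposited scaling and after quantile normalization. Under the deposited scaling higher calls prevail in the weakest class (214 against 30) and lower calls in the strongest (213 against 95). After quantile normalization the weakest class holds 61 higher and 90 lower calls.

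Sfpq was represented by 7 probe sets, of which 5 were tested and 1 was called. That probe set, rc_AI009761_at on type B, read 1022, 1021, 1101 and 1112 in the 4 samples at 3 months. In the 11 earlier samples its lowest, median and highest intensity were 384, 622 and 861. All 4 late samples were thus above all 11 earlier ones, by 0.89 ± 0.11 (adjusted p = 1.36e-04, limma). The lowest levels were at 7 d, where the 3 samples read 384 to 433; the 14 d samples read 657 to 861 and the 28 d samples 462 to 712. Set against each time alone, the difference was 1.31 at 7 d (adjusted p = 3.10e-05), 0.51 at 14 d (adjusted p = 0.039) and 0.84 at 28 d (adjusted p = 0.0036, limma). Naive samples read 800.2 to 1036 and the sham sample at 3 months 965, so the injured 3-month samples stood at the upper edge of the naive range. Their difference from naive was 0.17 ± 0.14 (adjusted p = 0.60, limma).

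None of the other 4 tested Sfpq probe sets passed the test. The one with the highest mean signal, AF036335_at, read 1013, 929, 507 and 796 at 3 months and 520.1 to 1253 before, a difference of 0.05 ± 0.18 (adjusted p = 0.89, limma). The remaining 3 gave -0.05, -0.13 and 0.38. The call on rc_AI009761_at was kept in each alternative fit, with the 5th percentile as covariate (0.84, adjusted p = 0.0061, limma) and without each of the 15 samples in turn (largest adjusted p = 0.0021). Which Sfpq transcripts the 5 probe sets detect is not in the files used here. Of the 49 genes tested from a list of RNA-binding and splicing factors, 1 rose and 1 fell (2.99% and 3.44% over all genes). The median difference was -0.07 (all genes, 0.01). Rbfox2, a neuronal splicing regulator, was higher by 0.52 ± 0.16 (adjusted p = 0.045, limma), a call that was lost after leaving out any of 9 samples. Hnrnpc, an mRNA packaging protein, was lower by 0.55 on its brightest probe set, while another of its 5 probe sets was higher by 1.28.

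Disagreement between probe sets of a gene was common. For the 221 called genes with another tested probe set, 220 of 345 other probe sets (63.8%) had the same sign, 29 (8.41%) were called the same way and 13 (3.77%) were called the opposite way. Over all probe sets, 4.54% were called higher and 2.91% lower. Each gene below stands for its probe set of highest mean signal, and further probe sets are given for the genes described at length.

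Among the 9071 genes, 12 were called with the same sign in all 13 refits of the comparison and after leaving out each of the 15 samples in turn. They were singled out after their values were seen. In each of the 12 the late samples did not overlap the earlier ones, and 5 were higher and 7 lower.

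Ifitm3, an interferon-induced membrane protein that restricts virus entry, had the smallest p among genes. Its probe set read 4269, 4916, 5228 and 5057 at 3 months, against 2456, 2845 and 3272 (lowest, median and highest) before. The rise was 0.78 ± 0.10 (adjusted p = 1.36e-04, limma), and all 4 late samples were also above the naive samples (2498 to 3702) and the 3-month sham sample (2971). The other 3 Ifitm3 probe sets gave -0.30, -0.22 and 0.12, and none passed the test.

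Slc7a10, a transporter of small neutral amino acids such as D-serine and glycine, read 564, 654, 679 and 893 at 3 months and 240.1, 334 and 434 before. It rose by 1.02 ± 0.16 (adjusted p = 7.39e-04, limma), and its naive samples (449 to 695) overlapped the late ones. Evi5, a regulator of membrane traffic and of cell division, read 3644, 3182, 3712 and 3935 against 1539, 1945 and 3107. It rose by 0.82 ± 0.14, to levels that overlapped naive cortex (2650.5 to 3776). Desi2, a peptidase that acts on ubiquitin-like modifiers, rose by 0.68 ± 0.10, and Faap24, a member of the Fanconi anaemia DNA repair complex, by 0.83 ± 0.13. For Slc7a10, Evi5, Desi2 and Faap24 a weaker second probe set was tested and not called. These gave -0.00025, 0.26, 0.14 and 0.05. The second Slc7a10 probe set, which showed no change, had a mean signal of 8.79, close to the 8.99 of the first.

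Rrp15, a factor in ribosomal RNA processing, showed the largest fall of the 12. It read 327, 240.1, 404 and 393 at 3 months, against 465, 949.5 and 1270.1 before and 752 to 960.1 in naive cortex. The fall was -1.34 ± 0.20 (adjusted p = 6.94e-04, limma), and the difference from naive was -1.28 (adjusted p = 0.024). The 3-month sham sample read 424, close to the injured ones. Rragc, a Rag GTPase that carries amino acid signals to mTORC1, read 2376, 2512, 2616 and 3029.6 against 3244, 4223 and 5340.2. It fell by 0.65 ± 0.10 to levels that overlapped naive cortex (2716 to 3124), while the sham sample read 3908. Its other 2 probe sets gave -0.35 and -0.18, which did not pass.

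Kif5a, a kinesin heavy chain that drives transport along axons, was at 16799, 16504, 17340.0 and 17155 at 3 months. Earlier samples ran from 21247 to 32121 with a median of 26089, and naive samples from 24154 to 31827. The fall was -0.57 ± 0.12 (adjusted p = 0.0053, limma) and the difference from naive -0.68 (adjusted p = 0.034). Injured cortex at 4 h read 12980 to 18870, so the low level of Kif5a was not confined to 3 months. Hyal3, of the hyaluronidase family, fell by 0.90 ± 0.14, and Cit, the citron kinase of cell division and dendritic spines, by 0.88 ± 0.16. Sidt2, a lysosomal membrane protein, fell by 0.64 ± 0.12. Atp6v0e2, a subunit of the proton pump of lysosomes and synaptic vesicles, fell by 0.50 ± 0.08, and its second probe set gave -0.36, which did not pass. Of the other 4 Cit probe sets none was called, with differences from -0.32 to 0.39.

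**Figure D2:**
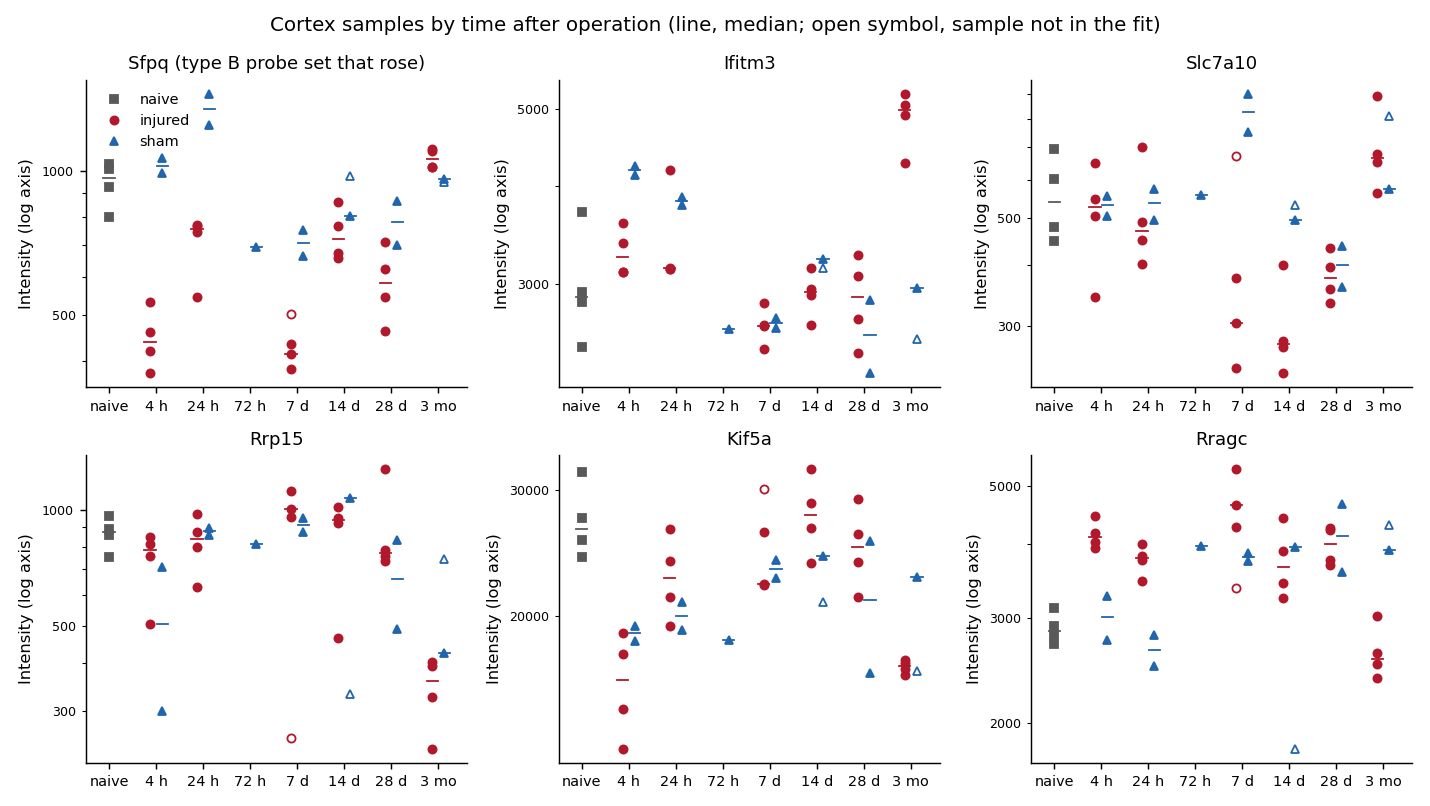
Intensity (log axis) of 6 probe sets in each cortex sample by time after operation, with naive samples in grey, injured in red and sham in blue; lines mark medians and open symbols the 3 samples left out of the fit. In injured cortex, Sfpq, Ifitm3 and Slc7a10 at 3 months lie above every fitted sample at 7 to 28 d, and Rrp15, Kif5a and Rragc below. Sham samples overlap the injured 3-month ones for Slc7a10 (754 to 903 at 7 d) and Kif5a (16604 at 28 d). They also overlap for Sfpq (989 to 1064 at 4 h), Rrp15 (301 at 4 h) and Rragc (2495 to 2806 at 24 h). Ifitm3 is also above the naive samples, while Slc7a10 and Rragc overlap them.

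The 15 genes with the largest rises were mostly weakly expressed. In 7 of them (Ugt2b35, Pik3r1, Klrb1a, Kcnj3, Il9r, Kcnk5 and Cdh16) the earlier mean was below that of the negative controls. All 15 lost their call with the 5th percentile as covariate. Ccn1, a secreted matrix protein induced by growth factors, read 691, 940.2, 743 and 419 at 3 months, against 22.5, 81.0 and 471 before. It showed the largest rise at 2.25 ± 0.58 (adjusted p = 0.018, limma), but the groups overlapped, naive samples ran from 15.2 to 1136, and the call was lost without any 1 of 3 samples.

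Lsamp, a cell adhesion molecule of limbic and cortical neurons, was the strongest signal among them. Its 3-month samples were tight at 2308, 2229.8, 2109 and 2309, while the earlier ones ran from 91.6 to 2403 with a median of 596. Naive samples were higher still, at 2689 to 4269.9. Its rise of 1.73 ± 0.51 (adjusted p = 0.037, limma) was lost without any 1 of 8 samples. Ndst1, an enzyme of heparan sulphate synthesis, read 571, 458, 616 and 603 against 33.8, 224 and 368, with no overlap. It rose by 1.41 ± 0.32 (adjusted p = 0.0088), and its difference from naive was 1.74 (adjusted p = 0.041, limma). Selp, the P-selectin of activated endothelium and platelets, rose by 1.35 ± 0.33, and Col8a1, a short-chain collagen of vessel walls, by 1.33 ± 0.41. Rwdd1, Rpl17 and Chtf8 completed the list, with rises of 1.54, 1.41 and 1.36.

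Of the 15 largest falls, none had an earlier mean below the negative controls, but 7 had a 3-month mean below them (Zfp276, Mfhas1, Rnf121, Reep6, LOC102555617, Adss1 and Lcmt2). The size of these 7 falls is not well determined, since the late signal is not above background. Zfp276, a zinc finger protein, read 47.3, 39.2, 49.0 and 56.5 at 3 months against 165, 259 and 329 before. All late samples were below all earlier ones, with a fitted difference of -1.86 ± 0.33 (adjusted p = 0.0020, limma). Its mean at 3 months, 6.32, was below the 7.32 of the type B negative controls. Mfhas1, a regulator of Toll-like receptor signalling, read 38.7, 24.2, 30.8 and 45.5 against 53.4, 164 and 276, a fitted difference of -1.59 ± 0.29 (adjusted p = 0.0022, limma) with a late mean of 6.05, below the 7.03 of the type C negative controls. Its late samples were also below naive cortex (164 to 228; fitted difference -1.75, adjusted p = 0.030, again against a background signal) and below the sham sample at 321. Zfp276 and Mfhas1 kept their calls in each alternative that tested them; the filter at the 60th percentile tested neither, and the fits restricted to the 15 injured samples did not test Mfhas1. Naive samples of Zfp276 ran from 51.4 to 300.2 and overlapped the late ones.

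Nos2, the inducible nitric oxide synthase, read 115, 105, 334 and 257 against 255, 689.5 and 1003, with overlap, and fell by 1.64 ± 0.47 (adjusted p = 0.031, limma). Its second probe set gave 0.54. Vcf1, an adaptor of the p97 ATPase, fell by 1.26 ± 0.24 and was also below naive cortex by 1.30 (adjusted p = 0.046, limma). Aldh3a2, which oxidises fatty aldehydes, fell by 1.41 ± 0.28, and 2 further probe sets gave 0.09 and 0.38. Irf3, a transcription factor of the interferon response, fell by 1.25 ± 0.36, and its second probe set was called as well, at -0.97. With the 5th percentile as covariate the first probe set turned to 0.040, and its call was also lost without any 1 of 4 samples. Rnf121, Reep6, Emc8, LOC102555617, Scamp2, Adss1 and Lcmt2 fell by 1.12 to 1.43.

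Genes that respond to glucocorticoid hormone were the list with the lowest median, -0.44 against 0.01 for all genes. Of 15 tested, 4 fell (Gpd1, Klf9, Cebpd and Tsc22d3) and none rose, where over all genes 3.44% fell and 2.99% rose. Klf9, a transcription factor induced by corticosterone in neurons, read 2572, 3467, 2378 and 2768 at 3 months, and 3061, 4617 and 5827 before. It fell by 0.66 ± 0.15 (adjusted p = 0.010, limma). Naive cortex stood at 2608 to 3148 and the 3-month sham sample at 2774, so the late samples overlapped the naive ones. A weaker Klf9 probe set on type C went the other way, by 1.17 (adjusted p = 0.026), and the third gave -0.43, which did not pass.

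Gpd1, a glycerol phosphate dehydrogenase, read 1468, 2187, 1732 and 2306 against 2230.0, 2844 and 3341, and fell by 0.60 ± 0.13 (adjusted p = 0.0070, limma). Its second probe set gave -0.53, which did not pass. Cebpd, a transcription factor of the acute phase, read 1378, 1517, 1503 and 849 against 1433, 1691 and 2073. It fell by 0.44 ± 0.12 on this probe set and by 1.04 on another, while the third gave 0.49, which did not pass. Tsc22d3, the glucocorticoid-induced leucine zipper, read 1105, 1105, 1194 and 1537 against 1127, 1688 and 2484, and fell by 0.43 ± 0.12. The late and earlier samples overlapped for each of the 4. Fkbp5 (-0.54) and Sgk1 (-0.44), both classic hormone targets, did not pass.

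Against 7 d alone the median of this list was -0.10 with no gene called, against 14 d -0.49 with 3 lower, and against 28 d -0.54 with 5 lower. Tsc22d3 had a median of 1354 at 7 d, 1700.3 at 14 d and 2162 at 28 d, and of 1149 at 3 months and 1191 in naive cortex, while the 3-month sham sample read 1884. At 4 h it was 2747 in injured and 2803 in sham cortex. The list's median was 0.06 against naive and 0.12 within sham, with no gene called in either. In the raphe, for the same times, 6 of these genes were lower and none higher, and the median was -0.35; over all raphe probe sets 1020 were lower and 1060 higher. All 4 cortical calls were lost with the 5th percentile as covariate, where the differences were -0.54 for Gpd1, -0.45 for Cebpd, -0.28 for Tsc22d3 and -0.23 for Klf9. Of the other list members named as called in the paragraphs that follow, Kif5a, Ntrk2 and Ifitm3 kept their calls under that covariate and the rest did not.

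**Figure D3:**
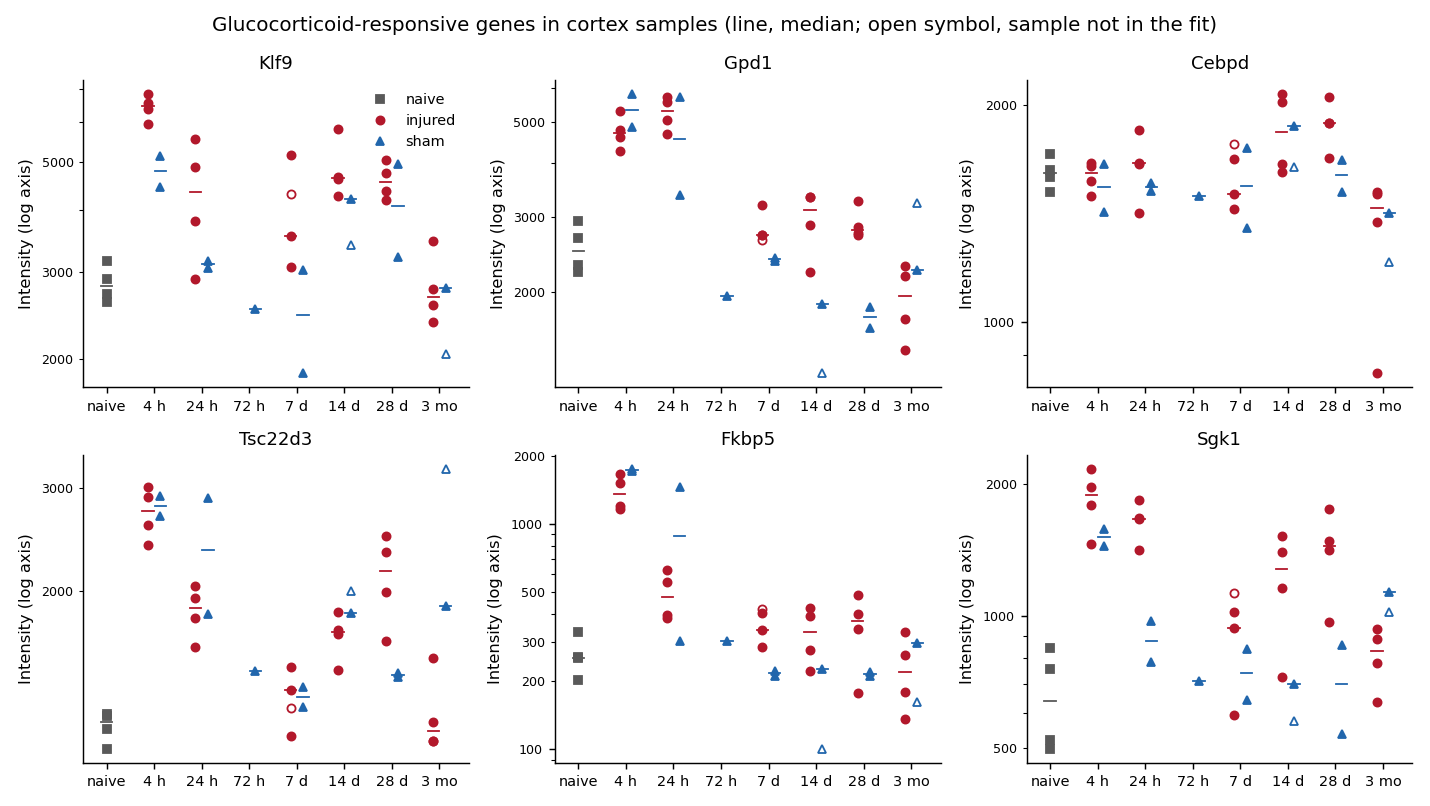
Intensity (log axis) of 6 glucocorticoid-responsive genes in each cortex sample by time after operation (grey, naive; red, injured; blue, sham; line, median; open symbol, sample left out of the fit). Tsc22d3 has a median of 1149 at 3 months and of 2162 at 28 d, and its 3-month samples and those of Klf9 overlap the naive samples. Fkbp5 and Sgk1 did not pass the test.

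Of 53 ribosomal protein genes tested, 5 rose and none fell (2.99% and 3.44% over all genes), with a list median of 0.02. Rps24 read 1085, 1345, 1452 and 1608 against 533, 752 and 872, a rise of 0.88 ± 0.18 (adjusted p = 0.0042, limma) to levels that overlapped naive cortex (1076 to 1289). Rpl23a read 1934, 3042, 2599.9 and 2959.7 against 894, 1105 and 1687, a rise of 1.13 ± 0.24. Rps18, Rpl36 and Rpl17 were the other 3, and Rps18 lost its call after quantile normalization too. These transcripts have many processed copies in the genome, so their probe sets may not be specific. Of 35 proteasome genes, 6 fell and none rose, against the same shares over all genes, and the median was -0.09. Psmb5, the chymotrypsin-like catalytic subunit, read 5946, 5773, 5051 and 5264 against 6451, 7270.2 and 7907 and fell by 0.40 ± 0.09 (adjusted p = 0.011, limma), a call that quantile normalization also ended. Psmb1 and the ATPases Psmc2 and Psmc4 fell by 0.56, 0.55 and 0.45, and Psma2 and Psmd3 by 0.38 and 0.39.

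Of 27 neuronal cytoskeleton and transport genes, 3 fell and none rose (3.44% and 2.99% over all genes): Kif5a, the spectrin Sptan1 (-0.49 ± 0.14) and the vesicle motor Kif1a (-0.41 ± 0.11). Of 33 synaptic vesicle genes, 3 fell and 2 rose, and the median was 0.12, with 14 differences below 0. Vamp2, the SNARE protein of synaptic vesicles, read 10700.0, 16784, 10819 and 12789 against 15733, 17773 and 24998. It fell by 0.59 ± 0.14 (adjusted p = 0.0097, limma), and 3 of its 4 probe sets were called lower. Stx1a and Napa, which act with it in membrane fusion, fell by 0.38 and 0.37. Cplx2, a complexin that binds the SNARE complex, rose by 0.84 ± 0.26, and the vesicle protein Syngr1 by 0.54 ± 0.17. Of 33 voltage-gated channel genes, 2 rose and 2 fell, and the median was 0.12, with 13 differences below 0. Cacnb3, a calcium channel subunit, was among those that fell, by 0.56 ± 0.13.

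Growth-related genes that were called lay on both sides. Of 32 genes of axon growth and regeneration, 2 rose and 2 fell (2.99% and 3.44% over all genes), with a median of -0.03. The growth-cone proteins Marcksl1 and Basp1 fell by 0.76 ± 0.18 and 0.51 ± 0.13, and neither overlapped its earlier values. Atf3, a transcription factor that axotomy induces in many neurons, read 352, 333, 368 and 425 against 109, 196 and 293, a rise of 0.75 ± 0.18 (adjusted p = 0.012, limma). Naive samples of Atf3 ran from 167 to 356. Socs3, an inhibitor of cytokine signalling, rose by 0.96 from a level below the negative controls. Ntrk2, the receptor of BDNF, read 3138, 3076, 2881 and 3138 against 3620.0, 4418 and 5419 and fell by 0.58 ± 0.10 (adjusted p = 0.0017, limma). Its other 2 probe sets were not called.

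Calls in the glial and immune lists stand beside 2.99% higher and 3.44% lower over all genes. Of 18 myelin genes, Ugt8 and Cnp fell by 0.60 ± 0.16 and 0.48 ± 0.13 and none rose. The list median was -0.26 (all genes, 0.01), and 15 of 18 differences were below 0 (4410 of 9071 over all genes). Cnp, an enzyme of myelin sheaths, was also below naive cortex by 0.72 (adjusted p = 0.034, limma). None of 20 astrocyte genes was called. Of 22 microglia and macrophage genes, Laptm5 and Ctsb fell. Laptm5, a lysosomal protein of blood-derived cells, read 54.5, 259, 649 and 935 against 549.9, 1020.3 and 1477, and its second probe set gave -0.12. The mean level of the microglia list ran from 8.83 to 9.10 at 3 months and from 8.87 to 9.11 before. Of 25 complement and antigen presentation genes, C1qb and RT1-M3-1 fell by 0.59 and 0.63 and none rose. The median of that list was 0.21, above that of all genes, with 9 of 25 differences below 0. In the interferon list Ifitm3 alone of 14 genes was called.

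Lists for other tissues that a dissection could include were short, and over all genes 2.99% rose and 3.44% fell. None of 9 choroid plexus genes, 11 blood cell genes, 15 striatal genes and 11 brainstem and thalamus genes was called. At those shares lists of this size would hold few calls in any case, so the absence of calls says little about such tissue. The mean level of the choroid plexus list ran from 8.48 to 8.79 at 3 months and from 8.27 to 8.71 before. Of 19 meningeal and fibroblast genes, Col3a1 rose by 0.49 and Apod fell by 0.40. Those calls were marginal: Col3a1 lost its call in 10 alternative settings and without any 1 of 11 samples, and Apod in 6 settings and without any 1 of 10 samples. The lists for deep-layer and upper-layer neurons, of 11 genes each, held no call, and neither did the cell cycle list of 20. Of 21 interneuron genes, the peptide Npy fell by 0.48 ± 0.11 and Nos1 rose by 0.86 ± 0.22.

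**Figure D4:**
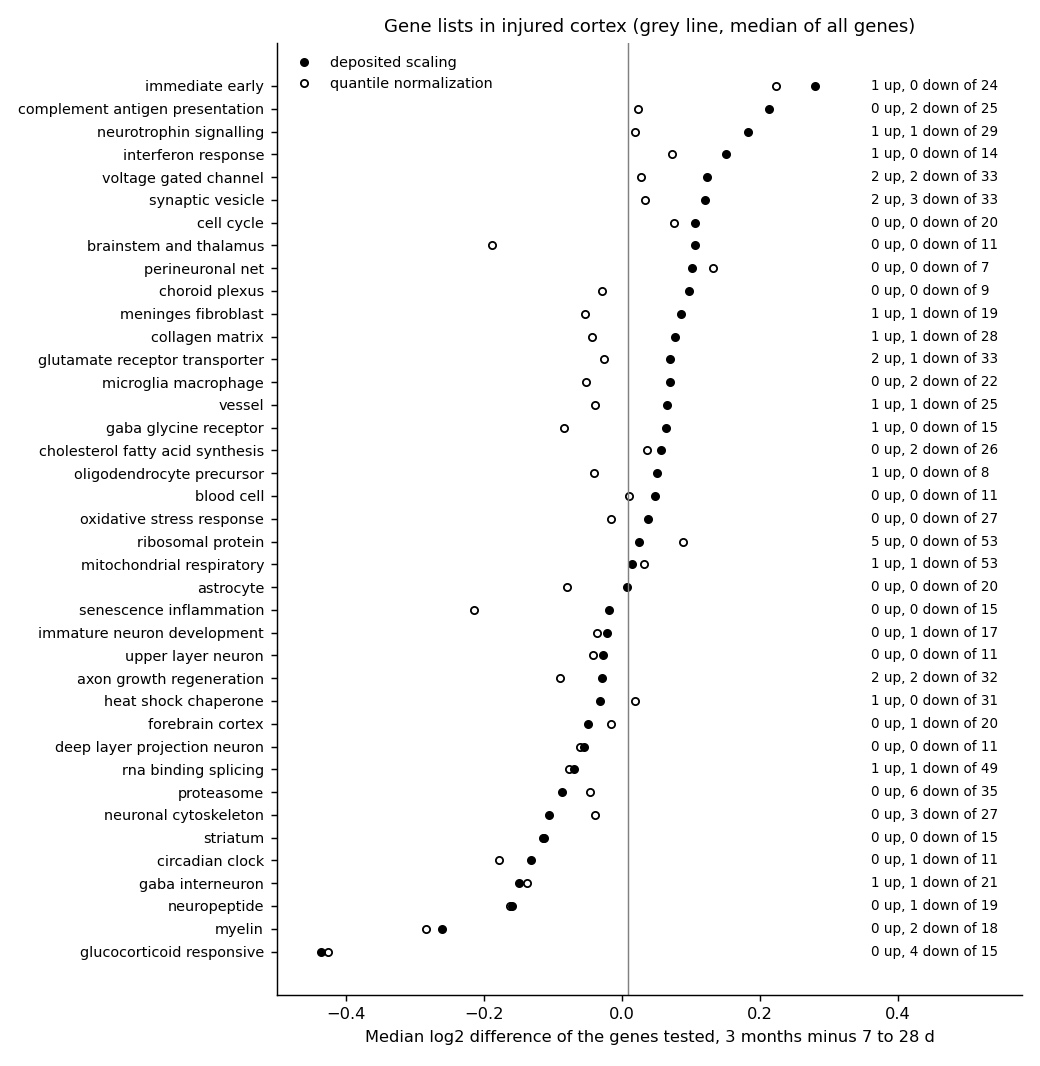
Median log2 difference (3 months minus 7 to 28 d) of the tested genes of each of 39 lists, under the deposited scaling (filled) and after quantile normalization (open), with the number of members called. The glucocorticoid-responsive list has the lowest median (-0.44), the immediate early list the highest (0.28). Several medians near 0 change sign between the scalings.

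Taken against each earlier time alone, the 3-month samples differed in 229 probe sets from 7 d (1.24%), in 611 from 14 d (3.3%) and in 710 from 28 d (3.84%). These 3 comparisons share the late samples, and the 7 d group has 3 samples where the others have 4. Ifitm3 was among the 5 genes of smallest p in each, with differences of 0.86, 0.73 and 0.76. Within the window, no probe set was called between 28 d and 7 d (0.0%) in limma's test. There were 1025 below 0.05 before adjustment, and no call after quantile normalization. Egr2 and Egr1, immediate early transcription factors, had differences of 1.71 and 1.06 there, which did not pass.

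Against naive cortex, 62 probe sets differed at 3 months (0.335%), 30 higher and 32 lower, with 110 after quantile normalization. The count was 2 without replicate 2 at 3 months, 15 without replicate 1 and 9 without naive replicate 2. Krt4, an epithelial keratin, read 445, 381, 648 and 581 in injured cortex at 3 months and 195, 219, 136 and 76.7 in naive cortex. It was higher by 1.57 ± 0.20 (adjusted p = 3.61e-04, limma), and the earlier injured samples (272 to 510.0) were above the naive ones as well. Slc17a6, the vesicular glutamate transporter VGLUT2, read 1097, 1136, 1074 and 1398 against 647, 650.3, 585 and 283, with earlier injured samples at 873 to 1176. Its difference from naive was 1.13 ± 0.19 (adjusted p = 0.016, limma). Krt4 and Slc17a6 were not called between 3 months and 7 to 28 d.

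Within sham cortex, the same times differed in 22 probe sets (0.119%), 5 higher and 17 lower. This rests on 1 sample at 3 months, which is assumed to vary like the other groups. The largest example, Get3, an ATPase that inserts tail-anchored proteins, read 84.6 in that sample and 345 to 587 in the 15 injured samples. Of the 1378 calls in injured cortex, 880 (63.9%) had the same sign within sham, and the sham medians were 0.15 for the rises and -0.06 for the falls. Over all 18489 probe sets, 9541 sham differences were above 0. The test of injured minus sham change called 15 probe sets (0.0811%), 4 of them among the 1378. Entpd1, an ectonucleotidase of microglia and vessels, was one, with 594, 481, 432 and 612 in injured cortex at 3 months, 203 in the sham sample and a difference of 1.62 ± 0.30 (adjusted p = 0.021, limma). With the other sham sample at 3 months kept in, 235 probe sets were called.

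In the raphe, the other region of the series, the labels do not say whether the animals were the same. There the same comparison called 2080 of 19557 probe sets (10.6%). Of the 1378 cortical calls, 313 were called the same way in raphe and 9 the opposite way; the 313 are 22.7% of the cortical and 15.05% of the raphe calls. The raphe medians were 0.31 for the cortical rises and -0.21 for the cortical falls. The 5th percentile of type A arrays was also higher in raphe at 3 months (10.7 to 14.8) than at 7 to 28 d (7.78 to 9.81). The difference between the regions was called in 169 probe sets (0.864%), 70 of them among the 1378. Ifitm3 changed by 0.13 in raphe, and its difference between regions was 0.65 ± 0.14 (adjusted p = 0.018, limma). Npy was lower in cortex (-0.48) and higher in raphe (0.36, adjusted p = 0.038), a difference of -0.84 ± 0.17 (adjusted p = 0.0092, limma). For Sfpq rc_AI009761_at the raphe gave 0.51 ± 0.16 (adjusted p = 0.031, limma), and the difference between regions did not pass (0.38, adjusted p = 0.46).

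The level of the called probe sets was followed across all cortex samples, as the mean of 472 rises minus the mean of 450 falls that passed under both scalings, with the 11 earlier samples set to 0. The 4 samples at 3 months lay between 1.26 and 1.69, and the choice of probe sets fixes both this level and its distance from the 11 earlier samples. Other samples may fall between these levels through that choice. Naive samples lay between 0.72 and 0.84. They were not in the contrast, but they entered the filter, the quantile normalization and the fitted spread behind the choice. Sham samples at 4 h and 24 h lay between 0.94 and 1.13, those at 7 d at 0.67 and 0.93, those at 28 d at -0.01 and 0.29, and the fitted one at 3 months at 0.60. Injured samples at 4 h and 24 h lay between 0.04 and 0.69. The 5th percentile of type A arrays in sham cortex ran from 10.1 to 16.3 from 4 h to 7 d and from 7.88 to 10.3 at 14 and 28 d. The level was 0.94 in sham 24 h replicate 1 (type A percentile 10.1), 0.60 in the fitted 3-month sham (10.2) and 0.29 in sham 28 d replicate 2 (10.3). These samples were not matched on type B, which the level also averages: their percentiles there were 14.9, 17.3 and 19.3. In the raphe, injured sample 1 at 4 h, whose actin 3' over 5' ratio was 29.1 on type A, read 1.71. The part of array quality in the calls was not tested beyond the covariates above.

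**Figure D5:**
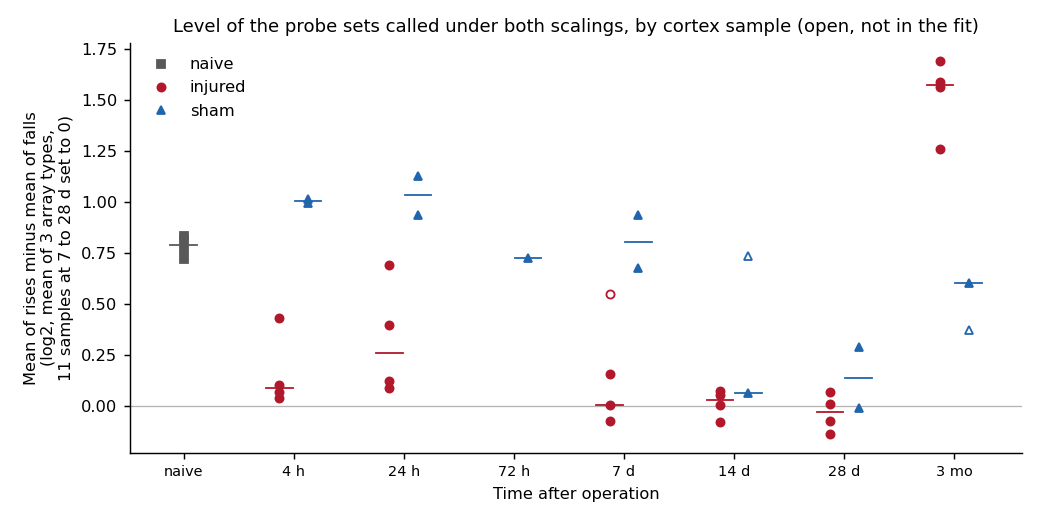
Mean log2 level of 472 rises minus that of 450 falls in each cortex sample measured on all 3 array types, by time after operation, with the mean of the 11 samples at 7 to 28 d set to 0 (grey, naive; red, injured; blue, sham; line, median; open symbol, sample left out of the fit). Injured samples at 3 months lie between 1.26 and 1.69 because the probe sets were chosen for their difference from the 11 samples at 7 to 28 d. Naive samples lie between 0.72 and 0.84.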

How the data were processed

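The authors deposited intensity values, 1 per probe set on a linear scale. The values show a nearly constant 2% trimmed mean per array, and this scaling was kept. How the authors made them was not given in the sources used here. Members and gene lists were chosen with earlier results of these data known. To each value 32 was added and the log2 taken. Of 26202 probe sets without controls, 18178 matched 1 gene symbol, 391 several and 7633 none (symbols updated through RefSeq, GRCr8). The filter kept a probe set that was above an array's 40th percentile on 4 or more cortex arrays.

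Group means were fitted with limma 3.58.1 (R 4.3.3) within each array type, over all cortex groups, with two-sided moderated tests and Benjamini-Hochberg adjustment over the 3 types at 0.05. The main contrast was 3 months minus the mean of the 3 earlier group means. Left out were injured 7 d replicate 2, sham 14 d replicate 2 and sham 3 months replicate 1, all put in doubt by earlier results of these data. Alternatives changed the added constant, the filter, the scaling, the samples, weights, covariates and a replicate block. The number of arrays limits the precision.

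Named genes were Sfpq, the 15 largest rises and falls called, up to 4 members of each list and up to 5 genes of each other comparison by smallest p; the 12 genes called throughout, Fkbp5, Sgk1, Psma2, Psmd3, Syngr1 and further probe sets were named after their values were seen. Nrgn and Camk2a are cortex markers.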

Additional observations from a re-analysis of the deposited data

Results flagged for a closer look

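Among 42 genes of the main comparison, 3 had a sample at 3 months that stood apart from the other 3 by Dixon's criterion, which chance meets in about 1 group of 20. Irf3 read 7.67 (log2) in replicate 3, Hyal3 read 8.81 in replicate 4 and Cit read 11.38 in replicate 3. For Irf3 and Hyal3 the sample was the lowest, in the direction of the fall, and for Cit it was the highest.

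For 7 genes the change from 7 to 28 d to 3 months differed between injured cortex and injured raphe by limma's test of the difference. Over all 19557 probe sets tested in both regions, 169 (0.864%) were called. All 7 were named for their change in cortex, which is also a term of this difference. That choice favours large differences, so the 7 are not independent evidence of a change particular to cortex. Kcnk5, a potassium channel, differed by 2.35 ± 0.51 (adjusted p = 0.017), and Pik3r1, a regulatory subunit of PI3-kinase, by 1.65 ± 0.42 (adjusted p = 0.041). Their means in cortex at 7 to 28 d, 6.61 and 6.36, were below the 6.79 of the type A negative controls, so the sizes are not well determined. The same holds for the next 2 genes, whose cortical means at 3 months were below the controls. Mfhas1 differed by -1.80 ± 0.39 (adjusted p = 0.017) and Zfp276 by -1.60 ± 0.43 (adjusted p = 0.0499). Ifitm3 differed by 0.65 ± 0.14 (adjusted p = 0.018), Hyal3 by -0.63 ± 0.16 (adjusted p = 0.045) and Atp6v0e2 by -0.47 ± 0.11 (adjusted p = 0.020).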

How the results depend on the processing

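The main count of 1378 stayed within 1.5 times under a smaller or larger added constant, no filter, a filter at the 60th percentile, quantile normalization, 2 groups in place of 4, 7 d replicate 2 kept in, array quality weights, the actin ratio as covariate and adjustment within each type. It was 826 with only the 15 injured samples, 739 with all cortex samples kept in and 47 with the 5th percentile as covariate (an alternative added after seeing the data), where the difference of Irf3 reversed to 0.040. Leaving out 1 sample gave 617 to 1483 in the main comparison, 72 to 204 against 7 d, 166 to 580 against 14 d, 219 to 638 against 28 d, 0 to 2 for 28 d against 7 d, 2 to 88 against naive, 13 to 20 in sham, 8 to 20 for injured minus sham and 75 to 224 between regions.

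With all samples kept in, the counts were 86 against 7 d, 222 against 14 d, 294 against 28 d, 1 for 28 d against 7 d, 15 against naive and 27 between regions. With sham 3 months replicate 1 kept in, they were 125 in sham and 235 for injured minus sham. Quantile normalization gave 110 against naive.

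The replicate number as a block gave 1468 calls, and 0 for 28 d against 7 d. Samples of the same number shared little (correlations of deviations from -0.22 to 0.18 over 21 pairs, median 0.05), so they were not treated as paired.

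Signal over background limits the largest rises, since 7 of the 15 had earlier means below the negative controls and the added 32 draws such differences towards 0.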
